A study of Mus musculus with 12 samples.

Results

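*Cxcl12* and *Cxcr4*, a chemokine and its receptor, are 2 of the 23086 gene symbols counted in mouse embryoid bodies that expressed wild-type or mutant LHX1. They were taken by symbol as a ligand and receptor pair. *Cxcl12* was chosen by its own response in these same libraries, where its counts had been lower with wild-type LHX1 and not with the mutant form. The levels of *Cxcl12* in the 4 groups are therefore a description and carry no test. *Cxcr4* was not chosen for its own values. Only *Cxcl12* passed the filter on low counts, so 1 of the 2 members was among the 12322 genes tested.

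The groups were 2-day embryoid bodies, which are clumps of differentiating embryonic stem cells, made from A2lox.cre stem cells. In these cells a gene placed in an inducible cassette is switched on by the antibiotic doxycycline, in all cells that carry it and not in a chosen cell type. The first group carried FLAG-*Lhx1* (LHX1 with a short peptide tag) and received doxycycline for 16 h, and the second was the same FLAG-*Lhx1* line without doxycycline. The third carried FLAG-*Lhx1* mutant and received doxycycline for 16 h, and the fourth was the mutant line without doxycycline. The sources used here give neither what the mutation changes nor whether each line is a single clone. Each group had 3 libraries. The labels do not say that these came from separate cultures, so p-values measure the spread between these libraries, which may be technical.

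CXCL12, also called SDF-1, is a secreted chemokine that is held near its source by heparan sulfate and steers migrating cells. It signals through CXCR4, a receptor coupled to inhibitory G proteins, and is also bound by ACKR3 (listed here as *Cxcr7*), which takes the chemokine up and clears it. The pair guides primordial germ cells and blood stem cells, and in zebrafish it acts in the movement of mesendoderm during gastrulation. CXCR4 on the cell surface is widely used to sort definitive endoderm from differentiating stem cells. LHX1 is a LIM homeodomain transcription factor of the organizer and anterior mesendoderm, needed for formation of the head.

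The libraries held 4289984 to 4850393 counts each. Levels are counts scaled by the TMM-adjusted library total (CPM), and fold changes are log2 values with a standard error (SE). Induction was checked on *Lhx1* itself, which had 307, 289 and 293 CPM in FLAG-*Lhx1* libraries with doxycycline, against 3.33, 1.81 and 1.12 CPM without it. It had 250, 260 and 235 CPM in mutant libraries with doxycycline, against 0.429, 0.407 and 0.428 CPM without it. Of 6 epiblast genes fixed as markers of the starting cells (*Pou5f1*, *Sox2*, *Nanog*, *Utf1*, *Fgf5*, *Dnmt3b*), all passed the filter. Their summed level was 4322 to 4426 CPM in FLAG-*Lhx1* libraries with doxycycline and 4524 to 4891 CPM without it. In the mutant line it was 4811 to 4952 CPM with doxycycline and 4883 to 5035 CPM without it.

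*Cxcl12* (ENSMUSG00000061353.11) is a protein-coding gene at chr6:117168535-117181367 on the plus strand of mm10 in the GENCODE M21 annotation. *Cxcr4* (ENSMUSG00000045382.6) is a protein-coding gene at chr1:128588199-128592293 on the minus strand. Below are the 250 bases before the RefSeq start of each gene in build GRCm38.p6, shown because the level of *Cxcl12* differed when a homeodomain factor was induced. They span chr6:117168285-117168534 (plus strand) and chr1:128592300-128592549 (minus strand), and are printed 5′ to 3′ along the gene's own strand. Capitals mark the homeodomain core TAAT, which reads ATTA where it lies on the other strand, and the hypoxia-factor core GCGTG.

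Cxcl12: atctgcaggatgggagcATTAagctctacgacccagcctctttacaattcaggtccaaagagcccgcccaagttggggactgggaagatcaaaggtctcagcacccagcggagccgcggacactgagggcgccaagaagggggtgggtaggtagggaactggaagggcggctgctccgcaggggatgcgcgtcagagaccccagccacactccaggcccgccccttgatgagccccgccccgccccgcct
Cxcr4: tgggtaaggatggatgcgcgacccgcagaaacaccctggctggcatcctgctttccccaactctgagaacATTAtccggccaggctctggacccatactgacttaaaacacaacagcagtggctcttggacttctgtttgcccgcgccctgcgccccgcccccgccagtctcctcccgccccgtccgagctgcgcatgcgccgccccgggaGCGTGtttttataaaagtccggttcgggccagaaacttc

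Each of these windows held a single TAAT, on the strand opposite to the gene, starting 233 bases before the start of *Cxcl12* and 180 bases before that of *Cxcr4*. TAAT was found on either strand in 54.9% of the 32851 RefSeq mouse promoters of the same length, so a match in both genes is common. The longer homeodomain palindrome TAATTA, which contains TAAT, was in 4.84% of promoters and in neither of these. The hypoxia-factor core ACGTG was in 16.6% of promoters and in neither window. GCGTG was in 28.2% of promoters, not in that of *Cxcl12* and once in that of *Cxcr4*, 39 bases before the start. Both windows were rich in G and C, at 64.4% for *Cxcl12* and 61.2% for *Cxcr4*, against a median of 52.4% over all promoters. These matches describe the letters in the windows, and binding was not analysed here.

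The ligand *Cxcl12* was lower in the FLAG-*Lhx1* line with doxycycline than without it. It had 27, 34 and 59 counts in the 3 libraries with doxycycline, against 106, 106 and 152 counts in those without it. As levels these were 6.17, 8.08 and 12.8 CPM with doxycycline, against 25.2, 23.97 and 34.1 CPM without it. The groups did not overlap, and the highest library with doxycycline stood at 53.5% of the lowest library without it. Every library with doxycycline was below every library without it for 9.06% of all genes tested, so the separation alone is not rare. The means were 9.02 ± 3.43 CPM with doxycycline and 27.7 ± 5.51 CPM without it (SD, n = 3 each), which puts the treated mean at 32.5% of the untreated. The fitted log2 fold change was -1.61 with an SE of 0.17. By size it was the 11th largest fall among 12322 genes tested, and the 2nd largest among the 9096 genes, whatever their kind, with a mean of at least 10 CPM. In this comparison 5.32% of all genes tested passed edgeR's quasi-likelihood test at a Benjamini-Hochberg adjusted p under 0.05, with 2.76% higher and 2.56% lower. These values chose the gene, so they are given without a p.

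No such difference was seen in the mutant line, where *Cxcl12* was at a like level with and without doxycycline, to within the spread of its libraries. It had 211, 221 and 219 counts with doxycycline, against 221, 197 and 206 counts without it. These were 46.3, 47.2 and 45.1 CPM with doxycycline, against 47.4, 40.1 and 44.1 CPM without it, and the groups overlapped. The means were 46.2 ± 1.05 CPM with doxycycline and 43.9 ± 3.68 CPM without it (SD, n = 3 each). The log2 fold change was 0.08 with an SE of 0.11. The response in the FLAG-*Lhx1* line minus that in the mutant line was -1.68 with an SE of 0.21. This difference was called for 2.49% of all genes tested, 1.40% positive and 1.09% negative. Both responses of *Cxcl12* belong to the pattern for which the gene was chosen.

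**Figure D1:**
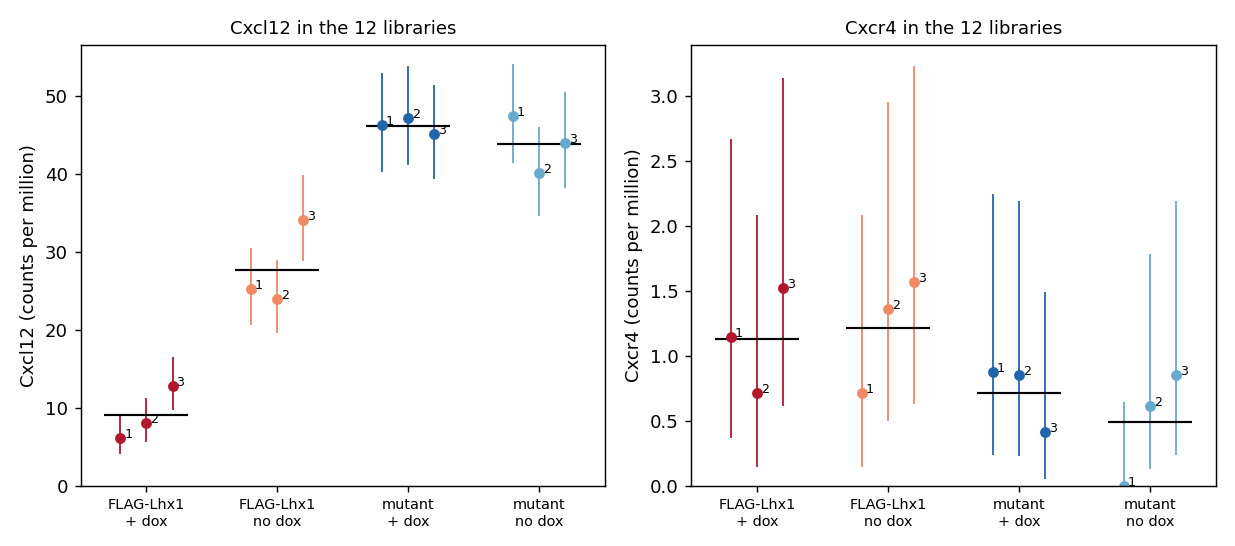
*Cxcl12* (left) and *Cxcr4* (right) in CPM in each of the 12 libraries, numbered 1 to 3 within a group. Points are libraries, vertical lines are 95% exact counting intervals and horizontal bars are group means. *Cxcl12* was at 6.17 to 12.8 CPM in the FLAG-*Lhx1* libraries with doxycycline, below all other libraries, while the intervals of *Cxcr4* overlapped in all 4 groups.

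The order of *Cxcl12* levels was FLAG-*Lhx1* with doxycycline, FLAG-*Lhx1* without it, mutant without it and mutant with it, from lowest to highest. The last 2 groups in that order did not differ beyond their spread. The lines differed before any doxycycline was given. Without it, all 3 FLAG-*Lhx1* libraries were below all 3 mutant libraries, which was so for 26.2% of all genes tested, and their mean was 63.3% of the mutant mean. The log2 difference was -0.66 with an SE of 0.12. With doxycycline the FLAG-*Lhx1* mean was 19.5% of the mutant mean and the groups again did not overlap, as for 26.1% of genes. That log2 difference was -2.34 with an SE of 0.16. The lines differed at 45.5% of all genes tested without doxycycline and at 44.4% with it (by the same test and threshold), so a difference between lines is common among genes.

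Replicates varied more in the FLAG-*Lhx1* line than counting error gives. The variance of the *Cxcl12* counts between libraries was 5.82 times the counting variance with doxycycline and 4.83 times without it. The mutant line had a variance of 0.114 times with doxycycline and 1.48 times without it. Library 3 was the highest in both FLAG-*Lhx1* groups, at 12.8 CPM with doxycycline and 34.1 CPM without it. Without library 3 of the treated group the log2 fold change was -1.96, and without library 3 of the untreated group it was -1.43. Leaving out both, a check added after the data had been seen, gave -1.79.

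The same libraries were high for hypoxia genes. *Bnip3*, a mitochondrial protein gene induced by low oxygen, had 52.1, 65.8 and 107 CPM in FLAG-*Lhx1* libraries with doxycycline, against 58.5, 63.3 and 229 CPM without it. *Adm*, the hypoxia-induced peptide adrenomedullin, had 0.229, 0.713 and 6.09 CPM with doxycycline, against 0.476, 1.36 and 10.98 CPM without it. Library 3 was the highest of its group for both genes. Mutant libraries had *Bnip3* levels that ranged from 83.4 to 134 CPM with doxycycline and from 109 to 148 CPM without it. The 23 hypoxia genes summed to 3709 to 4614 CPM in FLAG-*Lhx1* libraries with doxycycline and 3942 to 6247 CPM without it. They summed to 6623 to 7482 CPM in mutant libraries with doxycycline and 7008 to 7580 CPM without it. Of 22 tested, 0 passed the test in the FLAG-*Lhx1* response, where 5.32% of all genes did, while DESeq2 called 1 and limma-voom called 2. An unadjusted p under 0.05 was reached by 3 of the 22, against 1966 of the 12322 genes tested. The median log2 fold change of the 22 was -0.21, against -0.003 over all genes tested. With the mean level of the hypoxia genes as a covariate, the log2 fold change of *Cxcl12* in the FLAG-*Lhx1* line was -1.52. The covariate left the difference between untreated lines at -0.49, against -0.66 without it.

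**Figure D2:**
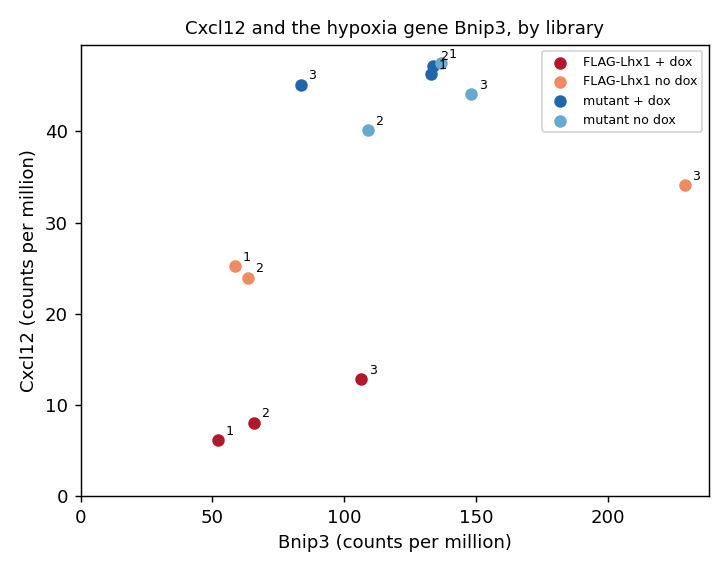
*Cxcl12* against the hypoxia gene *Bnip3* in the 12 libraries, both in CPM and coloured by group, with the library number beside each point. The FLAG-*Lhx1* libraries numbered 3 lie to the right of their groups, at 107 CPM of *Bnip3* with doxycycline and 229 CPM without it, and the FLAG-*Lhx1* libraries with doxycycline lie lowest for *Cxcl12*, at 6.17 to 12.8 CPM.

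Stromal cells are a rich source of CXCL12 in the body, so the levels of 14 fibroblast and stroma markers stand beside it. Their sum was 47.5 to 49.9 CPM in FLAG-*Lhx1* libraries with doxycycline and 34.4 to 49.5 CPM without it, and *Fap* had no count in any library. For mutant libraries the sum was 47.1 to 52.3 CPM with doxycycline and 52.2 to 58.2 CPM without it. Of 7 tested, 1 was higher in the FLAG-*Lhx1* response and 0 were lower by edgeR, against 5.32% of all genes called, and the median log2 fold change was -0.12. There were 2 with an unadjusted p under 0.05, and DESeq2 called both, while limma-voom called 1. The marker that passed was *Kitl*, the ligand of the KIT receptor, which had 20.6, 23.5 and 21.3 CPM in FLAG-*Lhx1* libraries with doxycycline against 9.51, 11.3 and 8.29 CPM without it. The other was *Dcn*, which encodes the matrix proteoglycan decorin. It had 3, 2 and 1 counts in FLAG-*Lhx1* libraries with doxycycline, against 5, 4 and 26 counts without it, so that library 3 of the untreated group held most of them. Its log2 fold change of -2.48 (SE 0.77) was larger in size than that of *Cxcl12* and missed the threshold in edgeR's fit (Benjamini-Hochberg adjusted p = 0.0727), but it was called in 7 of the other settings. *Dcn* was singled out after its values were seen. The part of stromal cells in the level of *Cxcl12* was not tested. In bulk RNA, fewer cells that make *Cxcl12* and less *Cxcl12* RNA per cell cannot be told apart.

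The receptor *Cxcr4* was near the limit of detection in all groups, with 48 counts over the 12 libraries. It had 5, 3 and 7 counts in FLAG-*Lhx1* libraries with doxycycline, against 3, 6 and 7 counts without it. As levels these were 1.14, 0.713 and 1.52 CPM with doxycycline, against 0.714, 1.36 and 1.57 CPM without it, and the groups overlapped. The ratio of the pooled levels was 0.931, with a 95% exact counting interval of 0.429 to 2.01. An exact permutation test of the levels gave p = 0.7, two-sided. With 3 libraries a group the smallest p this test allows is 0.1, so it could not have passed at 0.05. The difference was not detectable at this depth, and the interval leaves room for a *Cxcr4* level well below or above that of untreated embryoid bodies.

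In the mutant line *Cxcr4* had 4, 4 and 2 counts with doxycycline, against 0, 3 and 4 counts without it. The levels were 0.877, 0.855 and 0.412 CPM with doxycycline, against 0, 0.611 and 0.856 CPM without it. With 3 counts set as the upper limit for a count of 0, that library allows a level of up to 0.644 CPM. The groups overlapped. The pooled ratio was 1.44, with a counting interval of 0.496 to 4.47 and an exact permutation p of 0.6. The response in the FLAG-*Lhx1* line minus that in the mutant line was -0.63 on the log2 scale of pooled ratios. Fitted without a filter on low counts, edgeR's quasi-likelihood test gave this difference a Benjamini-Hochberg adjusted p of 0.957.

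Between lines *Cxcr4* was at 0.713 to 1.57 CPM in the 6 FLAG-*Lhx1* libraries (31 counts) and at 0 to 0.877 CPM in the 6 mutant libraries (17 counts). Without doxycycline the ratio of FLAG-*Lhx1* to mutant levels was 2.49, with a counting interval of 0.968 to 7.15. With doxycycline it was 1.60, with an interval of 0.674 to 3.99. An exact permutation test gave p = 0.2 without doxycycline and p = 0.3 with it. The smallest p this test allows is 0.1, so neither line comparison could have passed. It therefore cannot decide whether *Cxcr4* differed between the lines, before or after adjustment. Adjusted over the 4 comparisons of *Cxcr4* by the Benjamini-Hochberg method, the exact permutation p-values were 0.6 for both line comparisons and 0.7 for both responses. Unfiltered edgeR quasi-likelihood fits gave Benjamini-Hochberg adjusted p-values of 0.150 without doxycycline and 0.509 with it.

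Per kilobase of annotated exon, the ligand stood above the receptor in each group, by a margin that was smallest with wild-type LHX1. *Cxcl12* has 8176 exon bases over 4 transcripts and *Cxcr4* has 1808 over 2. The level of *Cxcl12* was 1.10 CPM per kilobase in FLAG-*Lhx1* embryoid bodies with doxycycline and 3.39 without it, and in the mutant line 5.65 with doxycycline and 5.37 without it. *Cxcr4* stood at 0.623 and 0.671 CPM per kilobase in the FLAG-*Lhx1* line with and without doxycycline, and at 0.395 and 0.270 in the mutant line with and without it. Among all genes with a count and a length, *Cxcl12* was at percentile 35.9 in the treated FLAG-*Lhx1* group and 52.8 in the untreated. It was at percentile 60.8 in the treated mutant group and 59.6 in the untreated. Which *Cxcl12* transcripts were used was not analysed here, and a shorter one would raise its level per kilobase.

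**Figure D3:**
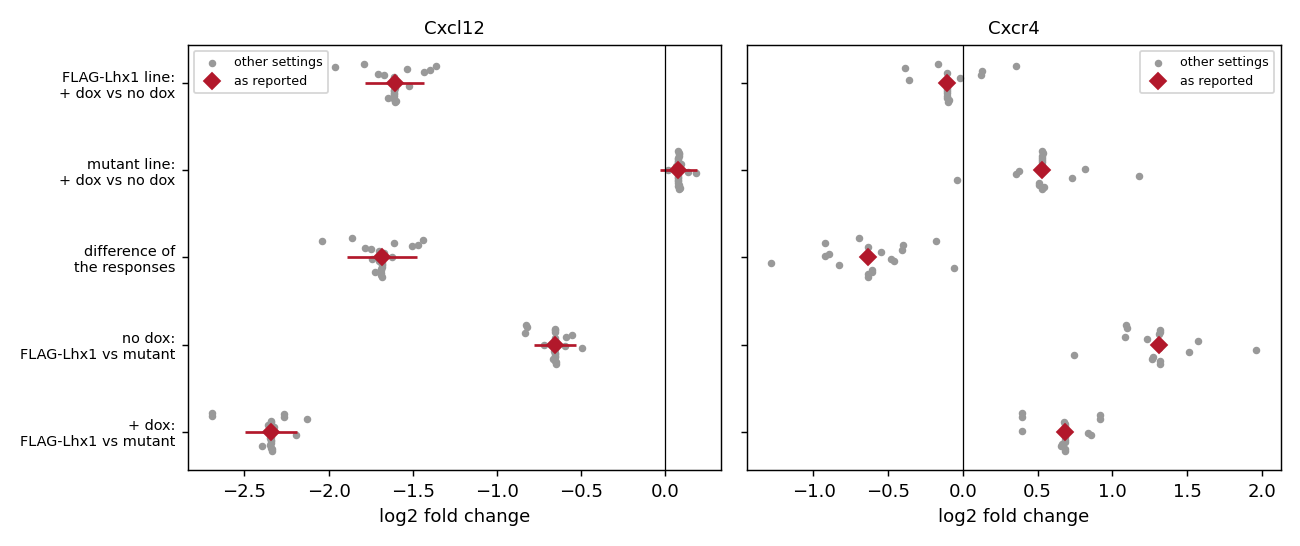
Log2 fold changes of *Cxcl12* (left) and *Cxcr4* (right) in the 5 comparisons. Diamonds are the values given in the text, with bars of 1 SE for *Cxcl12*, and grey points are the values under other settings and with libraries left out. *Cxcl12* in the FLAG-*Lhx1* line stayed at or below -1.36 under the settings shown, while *Cxcr4* values of that line lay on both sides of 0.

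The scavenger receptor ACKR3, encoded by *Cxcr7* in the table, had 5, 3 and 6 counts in FLAG-*Lhx1* libraries with doxycycline, against 4, 12 and 11 counts without it. The groups overlapped. Its log2 fold change of -0.94 (SE 0.48) did not pass edgeR's quasi-likelihood test (Benjamini-Hochberg adjusted p = 0.335), and the ratio of 0.515 had a counting interval of 0.249 to 1.02. In the mutant line it had 6, 7 and 10 counts with doxycycline, against 8, 13 and 6 without it. *Mif*, a cytokine that also binds CXCR4, averaged 512 ± 50.6 CPM in FLAG-*Lhx1* embryoid bodies with doxycycline and 575 ± 10.8 CPM without it (SD, n = 3 each). Its log2 fold change of -0.17 did not pass in edgeR's fit (Benjamini-Hochberg adjusted p = 0.369), but did without the filter on low counts (adjusted p = 0.00948). Mutant embryoid bodies had *Mif* at 718 ± 53.9 CPM with doxycycline and 718 ± 63.2 CPM without it.

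*Dpp4*, a surface peptidase that cuts the active end off CXCL12, averaged 3.58 ± 0.409 CPM in FLAG-*Lhx1* embryoid bodies with doxycycline and 4.796 ± 1.28 CPM without it. That response did not pass edgeR's quasi-likelihood test (log2 fold change -0.43, Benjamini-Hochberg adjusted p = 0.508). *Dpp4* was higher in the FLAG-*Lhx1* line, but it passed the filter on low counts only through that line, so this is a description only. Without doxycycline its log2 difference, FLAG-*Lhx1* minus mutant, was 1.44, and with doxycycline it was 1.00. The call with doxycycline was lost with DESeq2 and without library 2 of the treated FLAG-*Lhx1* group. *Cd74*, part of the MIF receptor, had 4, 6 and 5 counts in FLAG-*Lhx1* libraries with doxycycline and 8, 3 and 12 without it, too few to be tested.

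Few of the other chemokine genes passed the filter on low counts. Of 26 other ligands, 11 had no count and 4 were tested, and of 23 other receptors, 7 had no count and 3 were tested. In the FLAG-*Lhx1* response 0 ligands and 0 receptors passed edgeR's quasi-likelihood test, against 5.32% of all genes, with 0 ligands and 1 receptor at an unadjusted p under 0.05. DESeq2 and limma-voom also called 0 in both lists. The median log2 fold change was 0.30 for the ligands and -0.66 for the receptors, against -0.003 over all genes tested. The receptor was *Cxcr2*, a receptor of neutrophil-attracting chemokines, which was called once library 3 of the treated FLAG-*Lhx1* group was left out (log2 fold change -1.18, adjusted p = 0.0138). It was singled out here after its values were seen.

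The list of 15 partners and proteases holds *Cxcr7*, *Mif* and *Dpp4* and the matrix proteases and trafficking proteins that act on the pair. Of 11 tested, 0 passed in the FLAG-*Lhx1* response by edgeR, DESeq2 or limma-voom, against 5.32% of all genes by edgeR. There were 2 with an unadjusted p under 0.05, against 1966 of the 12322 genes tested, and the median log2 fold change was -0.05. Without library 2 of the treated FLAG-*Lhx1* group *Mmp14*, a membrane protease that cleaves CXCL12, was called (log2 fold change 0.49, adjusted p = 0.0375). Of 23 enzymes that build or edit heparan sulfate, the sugar that holds CXCL12, 12 were tested. By the same 3 tools 0 passed, against the same 5.32% of all genes by edgeR. Of the 12 tested enzymes 3 had an unadjusted p under 0.05, and the median was 0.05. *Ext1*, an enzyme that extends the heparan sulfate chain, was called without library 1 of the treated FLAG-*Lhx1* group (log2 fold change 0.30, adjusted p = 0.0270).

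Of 26 tested inhibitory G proteins, receptor kinases, arrestins and RGS proteins, 0 were higher and 1 was lower, which is not above the 5.32% of all genes called in this comparison. This was *Gnai2*, which encodes an inhibitory G protein subunit that couples to CXCR4. It had 286, 265 and 279 CPM in FLAG-*Lhx1* libraries with doxycycline, against 319, 326 and 330 CPM without it. *Gnai2* did not overlap between the groups, which was so for 9.06% of all genes tested in that direction. Its log2 fold change was -0.23 (SE 0.05, edgeR, Benjamini-Hochberg adjusted p = 0.000258). Its mean in the mutant line was 392 ± 15.2 CPM with doxycycline and 378 ± 10.9 CPM without it (SD, n = 3 each). The responses of the lines differed by -0.28 (edgeR, adjusted p = 0.00361), and this difference includes the response for which *Gnai2* was named.

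The median log2 fold change of the G protein list was 0.02. In the mutant response, where 0.0162% of all genes passed, edgeR, DESeq2 and limma-voom called 0 genes in each of these 5 lists, and 0 had an unadjusted p under 0.05.

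**Figure D4:**
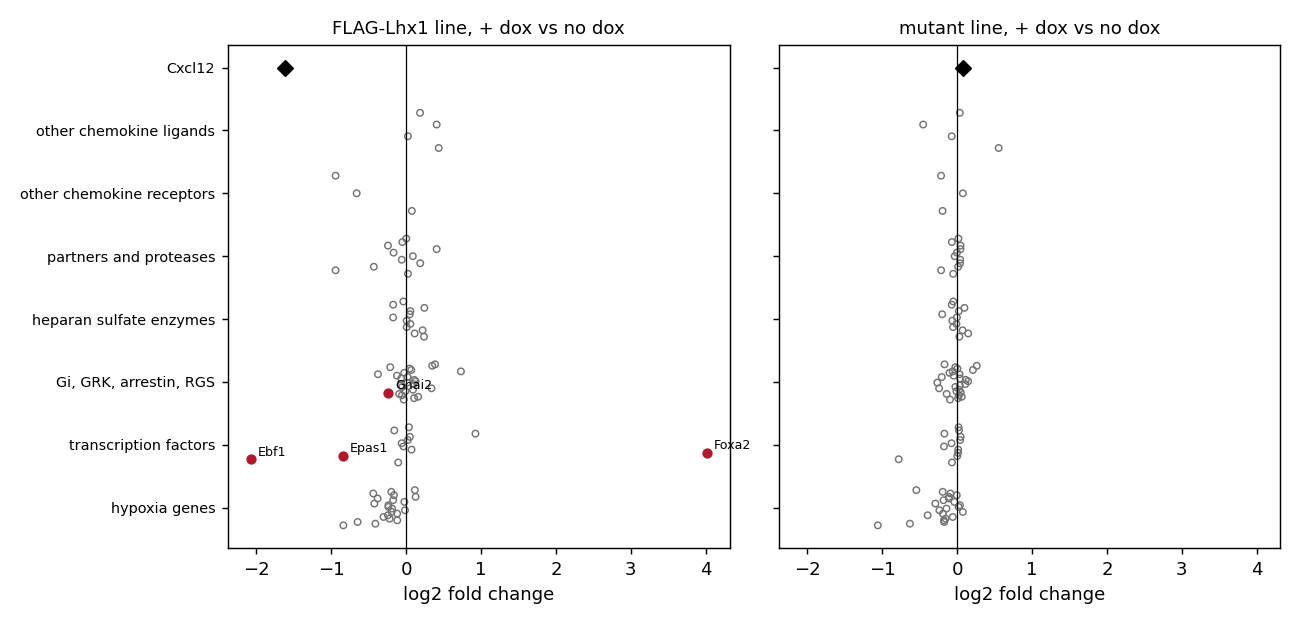
Log2 fold changes with against without doxycycline in the FLAG-*Lhx1* line (left) and the mutant line (right). The diamond is *Cxcl12*, each circle is a tested gene of the list named on the vertical axis, spread vertically for legibility, and filled circles are genes that passed edgeR's test. *Cxcl12* at -1.61 lay below all tested chemokine, partner and heparan sulfate genes in the FLAG-*Lhx1* line, and only *Ebf1*, among the genes shown, lay lower.

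Transcription factors known to act on *Cxcl12* or *Cxcr4* in other cells formed a list of 22, of which 12 were tested. In the FLAG-*Lhx1* response 1 was higher and 2 were lower, against 2.76% and 2.56% of all genes tested, and the median was -0.01. *Foxa2*, a forkhead factor of endoderm and the organizer, had 38 counts over the 3 libraries with doxycycline and 2 counts without it. The ratio of the levels was 18.9, and its 95% counting interval ran from 4.87 to 161. It passed the filter on low counts only through the treated FLAG-*Lhx1* group, where it was high, so its call is a description only. In the mutant line *Foxa2* had 6 counts with doxycycline and 6 without it. Its difference between the responses did not pass edgeR's test and rests on the same group, so it too is a description only. *Epas1*, which encodes the hypoxia factor HIF-2 alpha, had 12.1, 15.9 and 12.6 CPM in FLAG-*Lhx1* libraries with doxycycline, against 28.5, 24.9 and 19.7 CPM without it. The groups did not overlap, which was so for 9.06% of all genes tested in that direction. The log2 fold change of *Epas1* was -0.85 (SE 0.15, edgeR, Benjamini-Hochberg adjusted p = 6.77e-05). In the mutant line *Epas1* averaged 8.45 ± 0.488 CPM with doxycycline and 8.47 ± 2.42 CPM without it (SD, n = 3 each). Its difference between the responses did not pass (edgeR, Benjamini-Hochberg adjusted p = 0.0602), though 6 of 25 other settings called it.

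*Ebf1*, a factor of B cells and stroma, had 1, 5 and 5 counts in FLAG-*Lhx1* libraries with doxycycline, against 13, 20 and 14 counts without it. Its log2 fold change was -2.07 (SE 0.44, edgeR, Benjamini-Hochberg adjusted p = 0.000869). In the mutant line it had 12, 6 and 13 counts with doxycycline, against 18, 20 and 16 counts without it, a log2 fold change of -0.78. The difference between those responses did not pass (edgeR, adjusted p = 0.306). Untreated lines had like levels of *Ebf1*, 47 counts in the FLAG-*Lhx1* line and 54 in the mutant line. The part of *Foxa2*, *Epas1* and *Ebf1* in the level of *Cxcl12* was not tested.

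Markers of cell types in which the pair is known are given by their counts, to be read against the 5.32% of all genes called in the FLAG-*Lhx1* response (2.76% higher and 2.56% lower). Of 14 tested definitive endoderm and mesendoderm markers, 3 were higher (*Lhx1*, *Foxa2* and *Eomes*) and 1 was lower (*Lefty1*). The call of *Lhx1* was fixed in advance by the induced transgene. *Foxa2* passed the filter only through the treated FLAG-*Lhx1* group, where it was high. Apart from these, only *Eomes* was called higher. *Eomes*, a T-box factor of mesendoderm, had 34.97, 27.1 and 24.8 CPM in FLAG-*Lhx1* libraries with doxycycline, against 8.56, 7.69 and 11.9 CPM without it. *Cxcr4*, itself a sorting marker of definitive endoderm, had 15 and 16 counts in those groups. Of 10 tested primordial germ cell markers 1 was higher, *Ifitm3*, a membrane protein gene with a log2 fold change of 0.75. Of 7 tested blood and endothelium markers 1 was higher, the VEGF receptor gene *Flt1* (log2 fold change 1.04, edgeR, Benjamini-Hochberg adjusted p = 0.0306), while *Emcn* and *Hbb-bh1* had no count in any library. The *Flt1* call was lost in 8 of 25 other settings, with adjusted p-values of 0.0520 to 0.273. Among them were DESeq2 (adjusted p = 0.110), each treated FLAG-*Lhx1* library left out (edgeR adjusted p of 0.0661 to 0.0774) and untreated FLAG-*Lhx1* library 1 (0.133) or 2 (0.273) left out. The part of these markers in the level of *Cxcl12* was not tested.

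The same 5.32% of all genes stands beside the next 3 lists. Of 10 tested primitive and extraembryonic endoderm markers 3 were higher, the basement membrane genes *Lamb1* (0.38), *Sparc* (0.31) and *Lama1* (0.83), all log2 fold changes. Of 6 tested neural progenitor markers 2 were higher, the transcription factor genes *Zic2* (0.34) and *Pax6* (1.32), and 1 was lower, *Sox3* (-0.56). Without library 2 of the treated and library 3 of the untreated FLAG-*Lhx1* group together, edgeR's adjusted p was 0.0689 for *Sparc*, 0.103 for *Lama1* and 0.186 for *Sox3*, and *Sox3* also lost its call without either of those libraries alone (edgeR, adjusted p = 0.0645 without the treated and 0.0578 without the untreated library). Of the 6 epiblast genes 1 was higher, *Fgf5* (0.88), and 2 were lower, *Nanog* (-0.48) and *Pou5f1* (-0.21). In the mutant response edgeR, DESeq2 and limma-voom called *Lhx1* and 0 other members of these marker lists and of the transcription factor list. A further 3 genes, 1 each of the transcription factor, fibroblast and primitive endoderm lists, had an unadjusted p under 0.05 there.

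Between lines, where 45.5% of all genes differed without doxycycline, other genes of the chemokine system differed too. Without doxycycline 1 of 4 tested ligands and 2 of 3 tested receptors were higher in the FLAG-*Lhx1* line, and 0 were lower. The ligand was *Ccl25* (log2 difference 1.10), which lost this call in 9 of 24 other settings. *Ccl25*, the receptors *Cxcr2* and *Cmklr1*, and *Dpp4* among the partners passed the filter on low counts only through the FLAG-*Lhx1* line. They were high there, so their calls in either line comparison are descriptions only. Of 11 tested partners and proteases 3 were higher and 5 lower, and of 12 heparan sulfate enzymes 1 was higher and 8 were lower. With doxycycline, where 44.4% of all genes differed, the counts were 2 of 4 ligands, 2 of 3 receptors and 3 of 11 partners higher. At that time 5 of 11 partners and 7 of 12 heparan sulfate enzymes were lower. The median log2 difference of the heparan sulfate enzymes was -0.31 without doxycycline and -0.27 with it, against -0.003 and -0.009 over all genes tested.

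*Cxcr2* had 9.28, 6.33 and 6.05 CPM in untreated FLAG-*Lhx1* libraries, against 1.93, 1.42 and 1.28 CPM in untreated mutant libraries. The log2 difference was 2.20 (SE 0.33). With doxycycline it was 1.46, a call lost without library 3 of the treated FLAG-*Lhx1* group. *Cmklr1*, the receptor of the chemoattractant chemerin, differed by 1.23 without doxycycline and by 1.503 with it. Its call without doxycycline was lost without library 2 of the untreated FLAG-*Lhx1* group. The ligand gene *Ccl25* differed by 0.98 with doxycycline and lost the call in 7 of the other settings. *Cxcr2*, *Cmklr1* and *Ccl25* passed the filter only through the FLAG-*Lhx1* line, so their differences are given without a p. The ligand gene *Cxcl16* (0.59 with doxycycline, edgeR, Benjamini-Hochberg adjusted p = 0.0398) passed at a few CPM and lost the call in 8 of the other settings.

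Genes lower in the FLAG-*Lhx1* line, as *Cxcl12* was, included *Mmp14*. It had 14.3, 17.4 and 17.7 CPM in untreated FLAG-*Lhx1* libraries, against 33.9, 38.9 and 44.3 CPM in untreated mutant libraries (log2 difference -1.24). *Cd164*, a sialomucin that associates with CXCR4, differed by -0.33, and *Mmp2*, a matrix protease that also cleaves CXCL12, by -0.78 with doxycycline. Among heparan sulfate enzymes the chain-building *Extl3* differed by -1.01 and the 6-O-sulfotransferase *Hs6st2* by -1.33 without doxycycline. *Sulf1*, a secreted enzyme that removes 6-O-sulfate groups, differed by -0.52 with doxycycline. These 6 differences kept their direction and their call in all settings tried.

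Across the 12 libraries the genes whose log2 level was most like that of *Cxcl12* were *Bcl11a* (Pearson r = 0.98), *Ptch1* (0.97), *Inppl1* (0.96), *Stox2* (0.96) and *Kdm6b* (0.96), of 8658 genes compared, with predicted genes and small RNAs left out. *Bcl11a* encodes a zinc-finger repressor, *Ptch1* the hedgehog receptor, *Inppl1* an inositol phosphatase and *Kdm6b* a histone demethylase. *Bcl11a* had 9.60, 9.74 and 12.2 CPM in FLAG-*Lhx1* libraries with doxycycline and 17.4, 15.1 and 17.7 CPM without it. In mutant libraries it had 18.6, 20.5 and 21.0 CPM with doxycycline and 20.2, 20.6 and 22.5 CPM without it, so it too was lowest in the treated and next lowest in the untreated FLAG-*Lhx1* group, over a smaller range. The genes least like *Cxcl12* were *Rxrg* (-0.97), a retinoid receptor gene, *Mest* (-0.96), an imprinted gene, and *Dusp4* (-0.96), a MAP kinase phosphatase gene. These correlations describe libraries that share 2 lines and 1 treatment, and with Spearman's rho only 1 of the 5 nearest genes stayed among the nearest 5.

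With the mean of each line taken out, the nearest genes were *Bcl11a* (0.95), *Plcg2* (0.95), *Dhx32* (0.94), *Ptch1* (0.94) and *Enpp2* (0.93). *Bcl11a* and *Ptch1* were in both sets of 5. *Enpp2* encodes autotaxin, which makes a signalling lipid. It had 43.4, 44.9 and 47.2 CPM in FLAG-*Lhx1* libraries with doxycycline, against 124, 131 and 131 CPM without it. *Cxcr4*, at 0 to 7 counts a library, gave no likeness that can be read, and its highest value was 0.91 for *Nrm*.

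**Figure D5:**
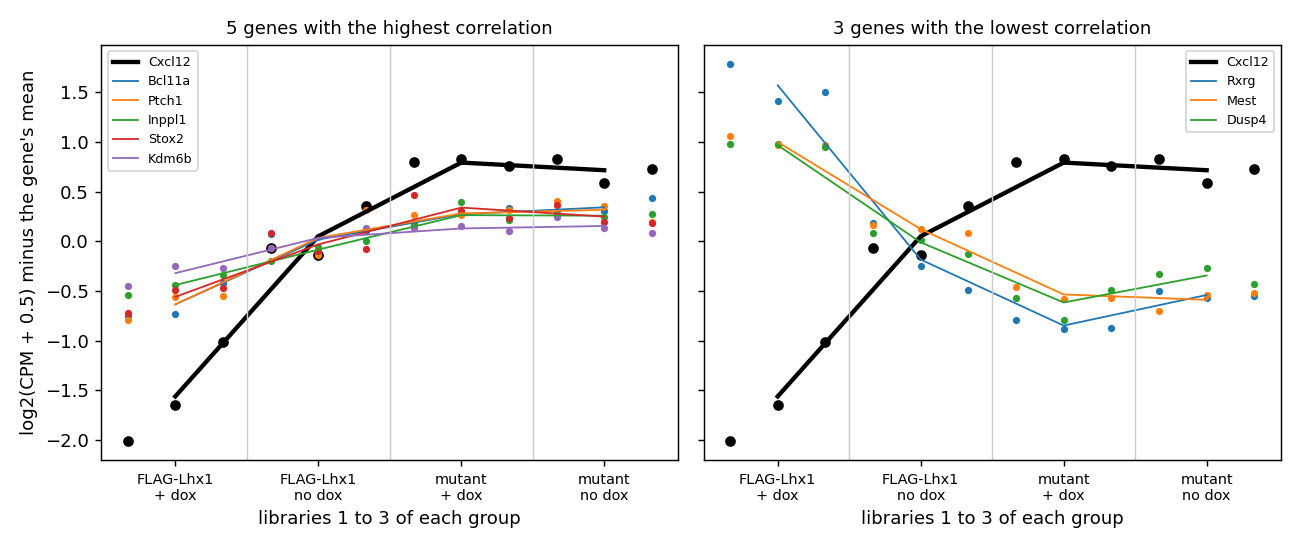
Log2 levels minus the gene's mean, for *Cxcl12* and the genes most and least like it, in the 12 libraries ordered by group. Points are libraries and lines join group means. *Bcl11a* and *Ptch1* were lowest in the FLAG-*Lhx1* libraries with doxycycline, as *Cxcl12* was, and *Rxrg*, *Mest* and *Dusp4* were highest there.

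No tested neighbour of *Cxcl12* passed in the FLAG-*Lhx1* response, where 5.32% of all genes did by edgeR. A count of 0 among so few genes is near that share. Within 1 Mb of the gene 9 others were tested, and edgeR, DESeq2 and limma-voom called 0, with 0 at an unadjusted p under 0.05 and log2 fold changes of -0.13 to 0.57. The nearest, *Rassf4*, lies 494583 bases away and had a log2 fold change of 0.37. Within 1 Mb of *Cxcr4* 8 genes were tested and the same tools called 0. There were 3 with an unadjusted p under 0.05, against 1966 of the 12322 genes tested, and log2 fold changes ran from -0.10 to 1.35. The largest of these belonged to *Tmem163*, which did not pass edgeR's test (Benjamini-Hochberg adjusted p = 0.290).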

How the data were processed

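The authors deposited 1 table of raw read counts, with 1 row per gene symbol and 1 column per library. Its column names match the sample titles. Per the labels, the RNeasy Micro Kit gave the RNA and the TruSeq kit the libraries. Per the submitters' processing notes, Trimmomatic 0.33, TopHat2 2.1.1, limma and the mm10 build were used. No counting tool, annotation or strand setting is named in the sources used here, so overlapping genes could share counts. Spreadsheet software had turned 27 symbols into dates, and these are not named.

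Counts were fitted with edgeR 4.0.16 (R 4.3.3), with TMM scaling, the filterByExpr filter (minimum count 10, total 15), robust estimation and 1 mean per group over all 12 libraries. The quasi-likelihood test was used with Benjamini-Hochberg adjustment over 12322 genes and a threshold of 0.05. It was tested on simulated data before use. The SE is the size of the log2 fold change over the square root of the F statistic. DESeq2 1.42.0 and limma-voom (limma 3.58.1) were alternatives.

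*Cxcr4* did not pass the filter. It is given as pooled ratios with 95% exact intervals, which cover counting error only, and by two-sided exact permutation tests over libraries, in place of the planned fit. The likeness measure used log2(CPM + 0.5) over genes with a mean of at least 10 CPM, leaving out predicted genes and small RNAs. The members, lists, comparisons and alternatives were chosen with earlier results of these data known. Named genes are the members, *Lhx1*, direct partners, *Bnip3* and *Adm*, list members with the smallest adjusted p among those that passed (up to 4 in the FLAG-*Lhx1* response and 2 in other comparisons), and the genes most and least like *Cxcl12*. A gene that met this rule, and its list, are not reported here. *Cxcr2* and *Mmp14* in the response, *Dcn*, *Ext1*, *Rassf4* and *Tmem163* were added after their values were seen. Positions are from GENCODE M21 and promoter sequences from RefSeq, for 2 of 2 members. Replicates were compared pairwise by chi-square tests of their counts. The most alike pair had a chi-square of 1.11 per degree of freedom, above sampling noise, and each library was counted once. Library 2 of the treated FLAG-*Lhx1* group stood apart, at 6.04 and 6.54 against its 2 replicates, where the other pair had 1.47. Library 3 of the untreated FLAG-*Lhx1* group was at 2.38 and 2.42, where the other pair had 1.35. In the untreated mutant group library 3 was at 2.07 and 1.96, where the other pair had 1.11.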

Additional observations from a re-analysis of the deposited data

Results flagged for a closer look

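Responses to doxycycline differed between the lines for *Cxcl12* and 13 of the list genes called in the FLAG-*Lhx1* response, given as the response in the FLAG-*Lhx1* line minus that in the mutant line. For *Cxcl12* the difference was -1.685 on the log2 scale, which belongs to the pattern it was chosen for and carries no test. The genes chosen for being like or unlike *Cxcl12* are left out, since they were chosen by their pattern over the same libraries. The 13 list genes passed edgeR's quasi-likelihood test of the difference itself, with Benjamini-Hochberg adjustment. They had first been called in the FLAG-*Lhx1* response, which is part of this difference, so passing was favoured beforehand. The 2.49% of all genes tested that passed is therefore not a like background. Log2 differences were positive for *Kitl* (1.634), *Eomes* (1.577), *Pax6* (1.364), *Flt1* (1.31), *Fgf5* (0.9148), *Ifitm3* (0.903), *Lamb1* (0.4268) and *Zic2* (0.2616). They were negative for *Lhx1* (-1.966), *Sox3* (-0.6831), *Lefty1* (-0.4522), *Gnai2* (-0.2844) and *Pou5f1* (-0.2641). Over these 13 the adjusted p-values from edgeR ran from 2.77e-12 for *Fgf5* to 0.0473 for *Zic2*. Calls of the difference were kept in all settings tried for *Eomes*, *Kitl*, *Fgf5*, *Ifitm3*, *Lamb1*, *Gnai2* and *Pou5f1*. Of 25 other settings, 18 lost the call of *Zic2*, 12 that of *Flt1*, 7 that of *Sox3*, 6 that of *Lhx1*, 5 that of *Lefty1* and 1 that of *Pax6*. *Lhx1* counts include the induced transgene, and its untreated level was 2.09 CPM in the FLAG-*Lhx1* line, against 0.421 CPM in the mutant line. Groups of 3 libraries are too small for a test of single outlying libraries.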

How the results depend on the processing

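For *Cxcl12* and *Cxcr4*, 208 values under other settings moved by less than 1 SD between replicates and 7 moved by more, and no called list gene named above changed direction. The genes chosen by likeness were recomputed only with Spearman's rho. The *Cxcl12* response of the mutant line was 0.18 with the hypoxia covariate. The *Cxcr4* response of the FLAG-*Lhx1* line was 0.35 without the libraries of that line that stood apart (library 2 with and library 3 without doxycycline). Leaving out 1 library at a time, *Cxcl12* ran from -1.96 to -1.40 in the FLAG-*Lhx1* response, 0.014 to 0.14 in the mutant response, -2.04 to -1.47 in their difference, -0.83 to -0.56 between untreated lines and -2.69 to -2.13 between treated lines. *Cxcr4* ran from -0.39 to 0.13, -0.042 to 1.18, -1.28 to -0.063, 0.74 to 1.96 and 0.39 to 0.91 in the same order. The cause was not tested. *Cxcr4* could not be fitted under settings that keep the filter, nor with the replicate number as a block. Over all genes tested, same-numbered libraries hardly deviated together (r of -0.062 to 0.081 within lines). With 3 libraries a group this cannot exclude that the numbers pair libraries. Library 3 was the highest of both FLAG-*Lhx1* groups for *Cxcl12*, *Bnip3* and *Adm*. With the replicate block *Cxcl12* gave -1.61 in the FLAG-*Lhx1* response and -1.69 in the difference, and 618 genes passed in that response in place of 655. DESeq2 called 380 genes in that response and 150 in the difference, against 655 and 307, and a fit of only the compared libraries called 5 genes in the mutant response against 2. Over all settings, calls in the FLAG-*Lhx1* response ran from 0 to 4 among hypoxia genes, 1 to 2 among fibroblast markers, 1 to 4 among primitive endoderm markers and 3 to 5 among epiblast genes. At 4289984 counts in the shallowest library, differences of the size seen for *Cxcr4* were not detectable.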
